A study of Homo sapiens with 18 samples.

Results

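ANGPTL4 and a set of lipid genes that respond to peroxisome proliferator-activated receptors (PPARs), with the 3 receptors themselves, were described in MDA-MB-231 cells. The 9 genes are ANGPTL4, PDK4, PLIN2, HILPDA, CPT1A, ACADVL, PPARD, PPARA and PPARG, out of 62703 genes in the files. The set was chosen by the strong rise of ANGPTL4 under the hairpin against EZH2, so every value of that comparison is given for these genes as a description, with no test. The EZH2 inhibitor was compared in libraries that the choice did not use, and that comparison carries tests. The E2F1 comparison shares its control libraries with the EZH2 comparison, so ANGPTL4, whose low control values entered the choice, is described there with no test, and tests are given for the other 8 genes.

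The MDA-MB-231 line comes from a triple-negative breast cancer, a class of tumour without estrogen and progesterone receptors or HER2 amplification. Its polyadenylated RNA was sequenced in 10 distinct libraries, 2 in each of 5 groups. In the knockdown arm, cells of the line were transduced for 24 h with lentivirus carrying a control shRNA, shEZH2 or shE2F1, and all were then selected with puromycin at 2 ug/ml for 72 h. The paper lists 1 shRNA sequence for each target, and effects of a hairpin beyond its target were not tested. In the drug arm, cells without a hairpin were kept for 72 h in the solvent DMSO or in 1 uM GSK126, which inhibits the methyltransferase of EZH2. EZH2 is the enzyme that methylates histone H3 within the Polycomb complex PRC2, and E2F1 is a cell cycle transcription factor that the study examined as its partner. The labels do not say whether the 2 libraries of a group came from separate cultures, so the p-values measure the spread between these libraries, which may be technical.

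PPARs are nuclear receptors that bind fatty acids and related lipids, pair with retinoid X receptors and occupy direct repeats of a short DNA motif. PPARA is best known for driving fatty acid oxidation in liver, PPARG for fat cell formation and lipid storage, and PPARD for lipid use in muscle and many other tissues. Genes they induce encode a brake on triglyceride uptake (ANGPTL4), a switch away from glucose oxidation (PDK4), lipid droplet proteins (PLIN2, HILPDA) and enzymes of mitochondrial fatty acid oxidation (CPT1A, ACADVL). Several of these genes also answer to low oxygen or to glucocorticoids, so lists of such genes were read beside them.

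To show what PPAR motifs lie near these genes, a direct repeat of AGGTCA with 1 spacer base was searched on both strands from 5000 bases before to 10000 bases after the GENCODE gene start. For PLIN2 that start (chr9:19149290, minus strand) lies far before its RefSeq promoter (chr9:19127443-19127742), which the window did not reach. The scan was chosen after the expression values were known, and 2 limits were tried in turn. With at most 1 mismatch in the 12 fixed bases, no match lay at ANGPTL4, CPT1A had 2 matches, PDK4 had 1, and PLIN2, HILPDA, ACADVL, PPARD, PPARA and PPARG had none. A match at this limit was held by 14.0% of 19970 protein-coding genes, and 1.68% held at least as many as CPT1A. Because ANGPTL4 had none, the limit was then loosened to 2 mismatches, at which 8 of the 9 genes held a match and PPARG held none. At that limit 77.2% of all genes held a match and the median gene held 1, so the 1 match at ANGPTL4 is the usual number. CPT1A had 7 matches, a number reached by 0.711% of genes, HILPDA had 3 (23.3%), ACADVL and PPARA had 2 (46.5%), and PDK4, PLIN2 and PPARD had 1. A match is a description of the letters and not evidence of binding, and the lack of one says only that these letters are not in the window.

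The 3 matches with 1 mismatch and the ANGPTL4 match with 2 mismatches are shown 5′ to 3′ on the strand of the motif (GRCh38), with the 13 bases of the motif in capitals. The CPT1A matches lie at chr11:68847760-68847772 (plus strand, 3362 bases before the gene start) and at chr11:68835830-68835842 (minus strand, in intron 1). The PDK4 match lies at chr7:95601229-95601241 (plus strand, 4725 bases before the gene start), and the ANGPTL4 match at chr19:8371033-8371045 (minus strand, in intron 4).
CPT1A, before the start: gtcagaatAGTTCAAAGGTCActattact
CPT1A, intron 1: cttgctcaAGGTCACAGGTCTgagtaatt
PDK4, before the start: cttggaggAAGTCATAGGTCAtctgactt
ANGPTL4, intron 4: gcccagaaAGGTACAAGGTCAccaggaag

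The promoter of ANGPTL4 is shown because this gene had the largest change of the set (RefSeq, GRCh38.p14, chr19:8363905-8364204, plus strand, 250 bases before to 50 bases after the RefSeq start). Capitals mark ACGTG, the core of the hypoxia response element, searched on both strands, in a scan likewise chosen after the values were known.
ANGPTL4 promoter: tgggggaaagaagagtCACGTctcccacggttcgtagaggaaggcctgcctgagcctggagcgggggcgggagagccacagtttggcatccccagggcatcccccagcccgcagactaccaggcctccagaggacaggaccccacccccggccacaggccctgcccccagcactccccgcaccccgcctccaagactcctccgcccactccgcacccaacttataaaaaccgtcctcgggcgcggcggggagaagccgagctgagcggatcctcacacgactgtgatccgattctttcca
The core was found in the promoters of ANGPTL4, PLIN2 and PPARG and in none of the other 5 matched genes, and in 21.6% of 27305 promoters of the same length. HILPDA was not matched in the promoter table.

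The libraries held 13198932 to 20055550 expected counts. EZH2 fell under shEZH2 (log2 change −1.79 ± 0.12 (SE), adjusted p = 2.4e-06 by edgeR's quasi-likelihood test), from 153 and 181 to 52.7 and 44.8 CPM (counts per 1000000 after TMM scaling). E2F1 fell under shE2F1 (−2.54 ± 0.24, adjusted p = 1.52e-05) and also under shEZH2 (−1.59 ± 0.23, adjusted p = 0.000172). A smaller fall of EZH2 was seen under shE2F1 (−0.37 ± 0.12, adjusted p = 0.0227 by edgeR). All 6 markers of a mesenchymal triple-negative line were present, with VIM at 1281 to 3522 CPM. Their summed level was 8350 to 9129 CPM under control shRNA, 4028 to 4205 under shEZH2 and 5384 to 5452 under shE2F1. Of the 8 epithelial or luminal markers, PGR was at 0 counts in all 10 libraries and ESR1 at 0.216 CPM or less, while KRT19 stood at 184 to 724 CPM, ERBB2 at 46.1 to 90.3, EPCAM at 10.4 to 33.9 and GATA3 at 8.7 to 16.4. Their summed level was 546 to 679 CPM under control shRNA, 276 to 280 under shEZH2 and 486 to 494 under shE2F1. This list was thus lower under the hairpins too, and its part in the results was not tested. Among the 6 fat cell markers, LEP was at 0 in all libraries and ADIPOQ, FABP4 and CIDEC were at 0 in 9 of 10. The summed fat cell level was 3.05 to 4.45 CPM under shEZH2, 6.52 to 6.69 under shE2F1 and 11.6 to 13.5 under control shRNA, most of it from LIPE.

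In levels per gene length (deposited TPM, which scale counts by gene length and library), ACADVL was the highest of the 9 genes in control shRNA cells, at 303 ± 18.1 TPM (SD, n = 2). PLIN2 followed at 54.8, PPARD at 38.9, PPARG at 30.6, CPT1A at 24.4, HILPDA at 13.5, PPARA at 5.78, ANGPTL4 at 4.87 and PDK4 at 0.5 TPM. Neighbours in this order did not overlap between their libraries except PPARA (5.18 and 6.38 TPM) and ANGPTL4 (4.19 and 5.54 TPM). ANGPTL4 thus ranked 8 of 9 in control cells, and ranked 2 of 9 under shEZH2 at 151 ± 15.9 TPM, below ACADVL at 166 ± 1.31 TPM. PDK4 was the lowest of the 9 in every group. Among the receptors, PPARD and PPARG stood above PPARA per length in all 5 groups.

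**Figure D1:**
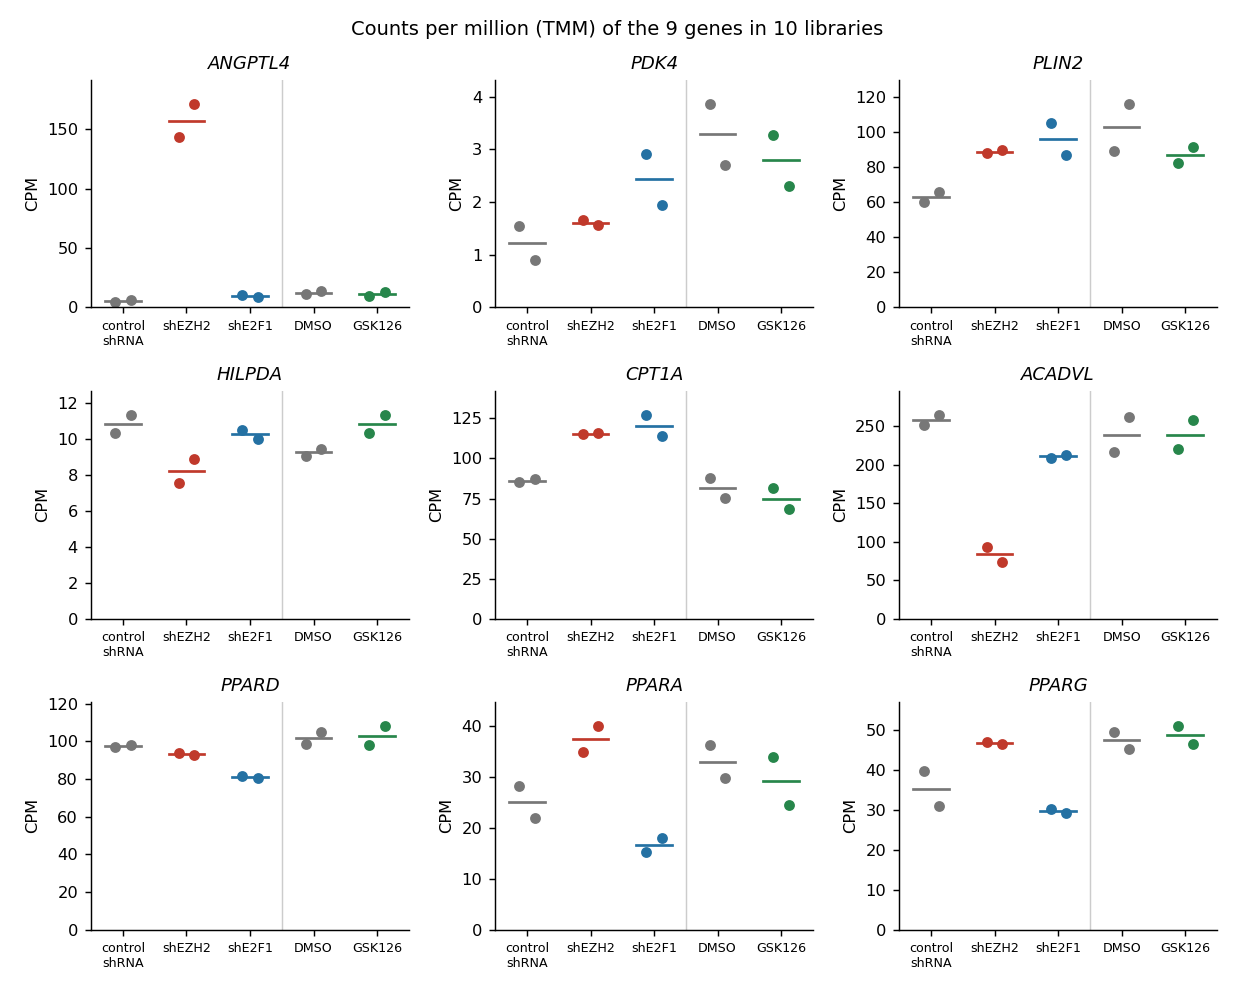
Level of each of the 9 genes in CPM (TMM-scaled, vertical axes from 0 and different for each gene) in the 2 libraries of each group (points) with the group mean (line); the grey line divides the knockdown arm from the drug arm. ANGPTL4 stood at 143 and 171 CPM under shEZH2 and at 13.8 CPM or less in every other library, and ACADVL was lowest under shEZH2.

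ANGPTL4 (chr19:8363289-8374370, plus strand), a secreted inhibitor of lipoprotein lipase, had 4.88 and 6.48 CPM under control shRNA and 143 and 171 CPM under shEZH2. The log2 change was 4.79 ± 0.16 (SE), 27.6-fold higher, and the shEZH2 libraries overlapped with no other group. The control libraries held at least 92 expected counts of it and the shEZH2 libraries 1900 and 2976, so neither level rests on a few reads. Under shE2F1 it had 10.9 and 9.12 CPM, above both control libraries, and under DMSO 11.1 and 13.8 CPM. The hairpin and drug controls were separate experiments, and their difference was not tested.

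PDK4 (chr7:95583499-95596516, minus strand), a kinase that shuts off pyruvate dehydrogenase, was near the lower limit of measurement. Its counts were 29 and 15 under control shRNA and 22 and 27 under shEZH2, or 1.54 and 0.9 against 1.66 and 1.56 CPM. The log2 change of 0.37 ± 0.41 was smaller than its standard error.

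PLIN2 (chr9:19108375-19149290, minus strand), the coat protein of lipid droplets in most cells, had 60.4 and 66 CPM under control shRNA and 87.9 and 89.7 under shEZH2. The log2 change was 0.48 ± 0.11 and the groups did not overlap. HILPDA (chr7:128455849-128458418, plus strand), a lipid droplet protein that inhibits adipose triglyceride lipase, had 10.3 and 11.3 CPM in the controls and 7.54 and 8.87 under shEZH2, a change of −0.41 ± 0.17. Exons of HILPDA overlap 2 noncoding genes on the same strand, which held 0 to 35.2 expected counts, so its counts depend on how reads were divided.

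CPT1A (chr11:68754620-68844410, minus strand), which loads long-chain fatty acids onto carnitine for entry into mitochondria, had 85.1 and 86.9 CPM in the controls and 115 and 116 CPM under shEZH2. Its log2 change was 0.41 ± 0.09. ACADVL (chr17:7217125-7225266, plus strand), the first dehydrogenase of long-chain fatty acid oxidation, stood the other way, at 251 and 264 CPM in the controls and 93.4 and 74 CPM under shEZH2. That is a log2 change of −1.64 ± 0.11, and the groups did not overlap. ACADVL therefore had the largest negative difference of the 9, and CPT1A, earlier in the same route, a positive one.

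The receptors differed among themselves. PPARD (chr6:35342558-35428191, plus strand) had 97 and 98.3 CPM in the controls and 93.7 and 92.6 under shEZH2, a log2 change of −0.08 ± 0.09 that turned to 0.27 after correction for GC content and length. PPARA (chr22:46150521-46243755, plus strand) had 28.3 and 21.9 CPM against 34.9 and 39.9, a change of 0.56 ± 0.15. PPARG (chr3:12287368-12434356, plus strand) had 39.7 and 31 CPM against 47.2 and 46.6, a change of 0.39 ± 0.13. The libraries of the 2 groups did not overlap in CPM for any receptor, nor for any other gene of the set. The share of all genes without overlap was not computed, so nothing is read from this.

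Under the thresholds of the study (adjusted p under 0.01 and over 2-fold), the EZH2 comparison called 18.2% of 15373 genes tested, and past them stood ANGPTL4 (higher) and ACADVL (lower) of the 9, all of which passed the filter on low counts in each comparison. Since this comparison chose the set, nothing is read from that count. The median log2 change of the 9 was 0.39, and that of all genes tested was −0.02.

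**Figure D2:**
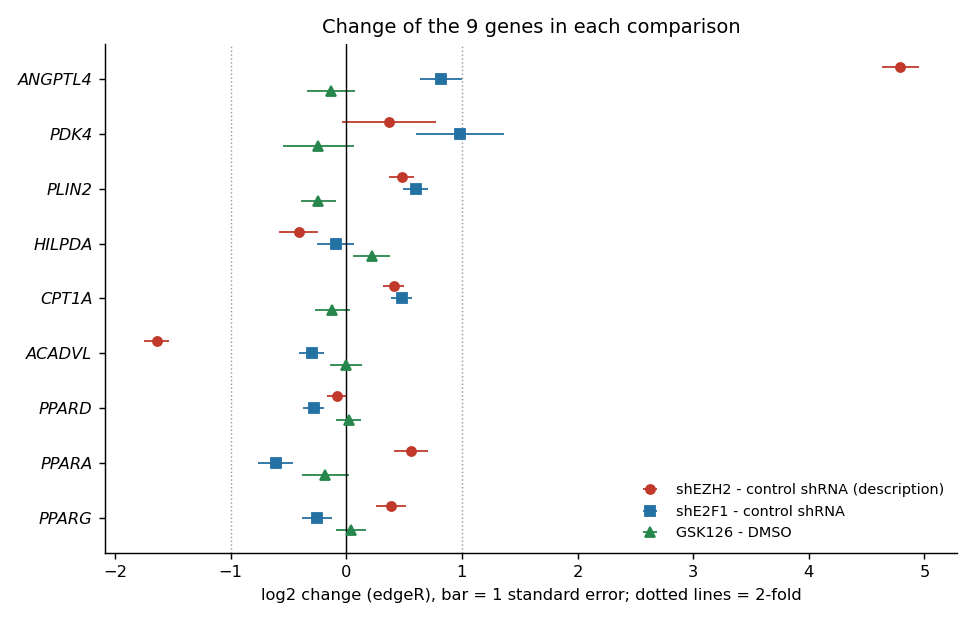
Log2 change of each of the 9 genes (edgeR, points) with 1 standard error (bars) for shEZH2, shE2F1 and GSK126 against their controls; dotted lines mark a 2-fold change. ANGPTL4 lay at 4.79 under shEZH2 and at 0.82 under shE2F1, ACADVL at −1.64 under shEZH2, and all GSK126 changes between −0.24 and 0.22.

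For ACADVL and PPARA the size of the change depended on how gene length was treated. RSEM gives each gene an effective length, the mean length of its transcripts, reduced for fragment size and weighted by their estimated share. For ACADVL this was 1140 and 1239 bases in the controls and 905 and 701 bases under shEZH2. Its deposited TPM, which divide by that length, were 316 and 290 in the controls and 167 and 165 under shEZH2. With effective length as an offset the log2 change of ACADVL was −1.05, and with GC and length correction −1.23, in place of −1.64. DLG4, which shares exonic positions with ACADVL on the other strand, had 21.2 CPM in both controls and 9.42 and 9.97 CPM under shEZH2. Whether counting took the strand into account is not stated, so reads of ACADVL and DLG4 may not be told apart. ANGPTL4 had effective lengths of 1664 and 1595 bases in the controls and 1662 and 1655 under shEZH2, and its change was 5.33 after GC and length correction.

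**Figure D3:**
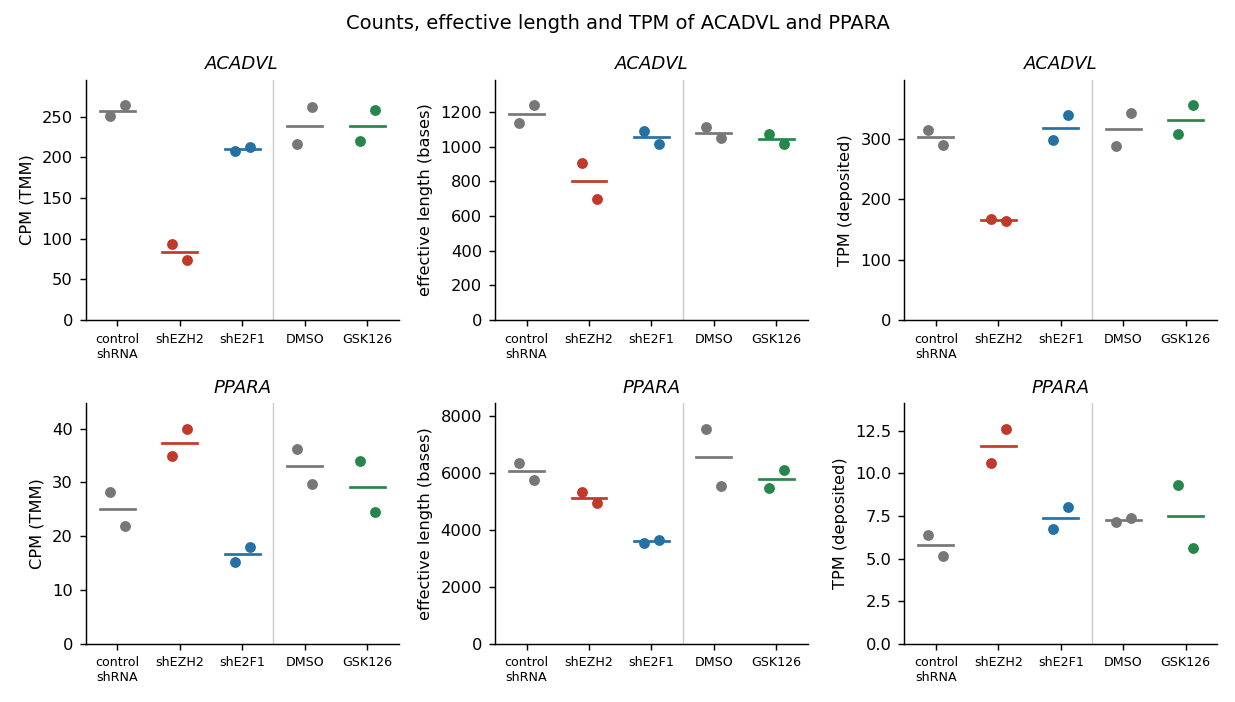
CPM, RSEM effective length in bases and deposited TPM of ACADVL (top) and PPARA (bottom), for the 2 libraries of each group (points) with the mean (line), all axes from 0. Effective length of ACADVL was lowest under shEZH2 (905 and 701 bases) and that of PPARA under shE2F1 (3541 and 3644 bases).

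Under knockdown of E2F1, 5 of the 8 genes other than ANGPTL4 passed an adjusted p under 0.05, each with a change of less than 2-fold. PLIN2 and CPT1A were higher, and PPARD, PPARA and ACADVL were lower. Over all genes 21.1% passed as higher and 23.7% as lower, beside 2 and 3 of the 8, and an excess of the 8 over these shares was not tested. Thresholds of the study called 11.6% of all genes and 0 of the 8 by edgeR, and 0 of the 8 by DESeq2. An unadjusted p under 0.05 by edgeR was held by 6 of the 8 and by 52.8% of all genes. The median log2 change of the 9 was −0.09 and that of all genes was 0.00.

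ANGPTL4 had 10.9 and 9.12 CPM under shE2F1 beside 4.88 and 6.48 in the controls, a log2 difference of 0.82 ± 0.18 (1.76-fold, description). PLIN2 rose to 105 and 87 CPM, by 0.60 ± 0.11 (adjusted p = 0.00125 by edgeR), with both libraries above both controls. CPT1A rose to 127 and 114 CPM, by 0.48 ± 0.09 (adjusted p = 0.00157). In these 3 genes no library of shE2F1 overlapped the controls in CPM, nor in PDK4, PPARD, PPARA, PPARG or ACADVL. The share of all genes without overlap was not computed, so nothing is read from this. PDK4 had 61 and 36 expected counts, a log2 difference of 0.98 ± 0.38 that missed the threshold (adjusted p = 0.0575) and passed in 6 of 15 alternatives, with an adjusted p from 0.0246 without a filter to 0.356 without shE2F1 replicate 1. Without control shRNA replicate 1 it was 1.42 (adjusted p = 0.0402).

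Among the receptors under shE2F1, PPARD fell to 81.5 and 80.6 CPM, by 0.28 on the log2 scale (SE 0.09, adjusted p = 0.0227), and did not pass after GC and length correction (log2 change −0.18), nor without control shRNA replicate 2 or either shE2F1 library. PPARA fell to 15.2 and 18 CPM (log2 change −0.61 ± 0.15, adjusted p = 0.00817), and did not pass without control shRNA replicate 1 (−0.42) or shE2F1 replicate 1 (−0.50). Its effective length was 6358 and 5761 bases in the controls and 3541 and 3644 under shE2F1, and its TPM were 6.38 and 5.18 in the controls and 6.72 and 8.04 under shE2F1. With effective length as an offset, PPARA changed by 0.13 (adjusted p = 0.553), so the direction of the PPARA result depended on that choice. PPARG had 30.4 and 29.4 CPM, a difference of −0.25 ± 0.13 that did not pass (adjusted p = 0.129) unless control shRNA replicate 2 was left out (−0.41, adjusted p = 0.0175).

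ACADVL under shE2F1 had 208 and 213 CPM, a log2 change of −0.30 ± 0.11 (adjusted p = 0.0444), close to the threshold and not passed in 10 of 16 alternatives, leaving out any of the 4 libraries among them. The deposited TPM of ACADVL were 298 and 340 under shE2F1 and 316 and 290 in the controls, and these overlapped. With effective length as an offset, ACADVL changed by −0.14 (adjusted p = 0.264 by edgeR). HILPDA had 10.5 and 9.98 CPM, which overlapped its controls, and differed by −0.09 ± 0.16 (adjusted p = 0.677). Set beside the EZH2 comparison, which shares the controls, ANGPTL4 differed between the hairpins by 3.97 ± 0.15 (shEZH2 minus shE2F1, description). On the same measure ACADVL differed by −1.33 ± 0.11, or by −0.91 with effective length as an offset. PPARA differed by 1.17 ± 0.15, or by 0.69 with effective length as an offset, while PLIN2 (−0.12 ± 0.11) and CPT1A (−0.07 ± 0.09) differed less.

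Inhibition of EZH2 with GSK126 gave no call among the 9 genes. By edgeR, 0% of 14632 genes were called at the thresholds of the study and 0% passed an adjusted p under 0.05, with 577 genes at an unadjusted p under 0.05, none of them among the 9. DESeq2 passed 19 genes, again none of the 9. ANGPTL4 had 11.1 and 13.8 CPM with DMSO and 9.49 and 13.3 with GSK126, and these libraries overlapped. Its log2 difference was −0.13 ± 0.21 (adjusted p = 1), and within replicate numbers 1 and 2 it was −0.23 and −0.06. For ANGPTL4 the shEZH2 change minus the GSK126 change was 4.93 ± 0.28 on the log2 scale, as a description. It spans both arms, of which only the knockdown arm had lentivirus and puromycin, and the part of these was not tested.

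PLIN2 had 89.4 and 116 CPM with DMSO and 82.3 and 91.5 with GSK126, a difference of −0.24 ± 0.15 (adjusted p = 1). Within replicate numbers 1 and 2 the difference was −0.12 and −0.34. HILPDA stood at 9.03 and 9.44 CPM with DMSO and at 10.3 and 11.3 with GSK126 (0.22 ± 0.16, adjusted p = 1), without overlap. ACADVL had 216 and 262 CPM against 220 and 258. PPARD, PPARG, PPARA, CPT1A and PDK4 differed by 0.02, 0.04, −0.18, −0.12 and −0.24 on the log2 scale, each less than its standard error (0.11, 0.13, 0.20, 0.15 and 0.31).

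As a description of likeness, log2 CPM of ANGPTL4 over the 10 libraries was correlated with 9389 other genes with a mean of at least 200 counts. The 5 highest were MFSD9 (r = 0.986), AKIRIN1 (0.981), UTP25 (0.981), CAMK1D (0.980) and LOX (0.980). All points share the 2 shEZH2 libraries that stand apart, and over the 6 knockdown libraries only AKIRIN1 stayed among the 5 highest, and by Spearman's rho over 10 libraries none did. LOX, the lysyl oxidase that crosslinks collagen, was at 19.7 and 14.2 CPM in the controls and at 316 and 383 CPM under shEZH2. Among the 9 genes, ANGPTL4 went with PPARA at r = 0.52, CPT1A at 0.47, PPARG at 0.41 and PLIN2 at 0.32. It went against ACADVL at −0.95 and HILPDA at −0.77, and stood at −0.06 with PPARD and −0.15 with PDK4. The receptors PPARA and PPARG had r = 0.89 with each other, over the same 10 libraries.

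Genes around the PPAR pathway were read from 8 lists of 142 genes, 16 of them in 2 or more lists. Their counts are read against all genes, of which 27.0% were higher and 28.6% lower under shEZH2 at an adjusted p under 0.05, and no difference between a list and all genes was tested. Under shEZH2, 8 of 12 tested PPAR partners and coregulators rose and 1 fell. The coactivator NCOA3 rose (log2 change 1.02 ± 0.11, adjusted p = 2.73e-05 by edgeR). It was called in 12 of 16 alternatives, with a change between 0.70 and 1.14, and not after GC and length correction. Of 17 tested further PPAR target genes, 4 rose and 3 fell, with CPT2, the inner carnitine transferase after CPT1A, lower by edgeR (−1.15 ± 0.15, adjusted p = 0.00012). In fatty acid oxidation 9 of 27 rose and 9 fell, close to the shares of all genes, and 5 were called, near the 18.2% over all genes. All 5 were lower, including CPT1C (−2.18 ± 0.33), ACADS (−2.18 ± 0.34) and ACAD9 (−1.53 ± 0.13). Of the acyl-CoA dehydrogenases, which include ACADVL, ACADM had −0.08 ± 0.12 and did not pass (adjusted p = 0.589 by edgeR, named after its value was seen).

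Of 13 lipid droplet and lipolysis genes, 2 rose and 7 fell under shEZH2, beside 27.0% and 28.6% of all genes. ABHD5, the coactivator of adipose triglyceride lipase, rose by 1.78 ± 0.10 (adjusted p = 8.69e-07), while the lipase PNPLA2 itself fell (−1.47 ± 0.14, −0.93 at the least over the alternatives and not called after GC and length correction) as did LIPE (−1.83 ± 0.22). In the lipoprotein lipase system, to which ANGPTL4 belongs, 4 of 10 tested genes rose and 3 fell. The receptor VLDLR rose under shEZH2 (2.16 ± 0.13, adjusted p = 1.37e-06) and under shE2F1 (2.24 ± 0.13, adjusted p = 1.23e-06), and LIPG rose under shEZH2 (1.64 ± 0.36). The controls of LIPG differed (10.2 and 3.36 CPM), its change lay between 1.07 and 2.66 over the alternatives, and DESeq2 did not call it. Around PDK4, the kinase PDK1 rose by 1.42 ± 0.12 and the phosphatase PDP1 by 1.07 ± 0.12, and PDHB fell (−1.30 ± 0.10), with 3 of 12 genes higher and 3 lower. PDK1 and PDP1 kept the direction and lost the 2-fold call after GC and length correction. PDK1 was called in 14 of 16 alternatives and PDP1 in 13 of 16.

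Hypoxia-induced genes were higher in 10 and lower in 5 of 20 under shEZH2, with LOX at 4.35 ± 0.16 and EGLN3 at 1.19 ± 0.20, and lower in 13 and higher in 1 under shE2F1, with DDIT4 at −3.15 ± 0.22, CA9 at −2.75 ± 0.31 and CA12 at −2.48 ± 0.31. The 5 lower under shEZH2 included CA12 (−1.17 ± 0.28) and CA9 (−0.79 ± 0.27), which thus fell in both knockdowns. CA12 was called there in 12 of 16 alternatives, with a change between −1.54 and −0.65, and not with effective length as an offset. All genes stood at 27.0% higher and 28.6% lower under shEZH2, and at 21.1% and 23.7% under shE2F1. ANGPTL4, which is known to answer to low oxygen, was higher in both knockdowns. Of 11 glucocorticoid-induced genes, 9 rose and 1 fell under shEZH2 (KLF9 2.41 ± 0.28, MT2A 1.76 ± 0.15), and 4 rose and 4 fell under shE2F1 (KLF15 1.95 ± 0.22, SGK1 1.83 ± 0.11, KLF9 1.82 ± 0.29). The median log2 change of the hypoxia list was 0.36 under shEZH2 and −0.70 under shE2F1, and that of the glucocorticoid list 0.98 and −0.11, where all genes stood at −0.02 and 0.00.

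Beside 21.1% higher and 23.7% lower over all genes, the other lists under shE2F1 held 3 genes higher and 4 lower of 12 PPAR partners (NCOA3 1.28 ± 0.11, PPARGC1B −1.28 ± 0.30), 3 higher and 5 lower of 17 PPAR targets (ACOT2 −1.02 ± 0.14) and 4 higher and 7 lower of 27 in fatty acid oxidation (HADH −1.83 ± 0.12). PPARGC1B was not called without any 1 of the 4 libraries, and ACOT2 was called in 12 of 16 alternatives. Lipid droplet genes were higher in 2 and lower in 7 of 13, with G0S2 (−1.67 ± 0.10), PNPLA3 (−1.67 ± 0.31) and MGLL (−1.63 ± 0.10). PLIN2, which as a member of the set was kept out of this list, rose under shE2F1. Most genes of the list that passed were lower. In the lipase system 4 were higher and 3 lower of 10, with FURIN, a protease that cleaves ANGPTL4, at −1.41 ± 0.09, and in the PDK list 4 of 12 were lower, with PDHX at −1.18 ± 0.12. Under GSK126 no gene of any list passed by edgeR, and 0 to 7 genes of a list had an unadjusted p under 0.05. The 7 were among the 20 hypoxia-induced genes (median log2 change −0.19, beside −0.01 for all genes), where 3.94% of all genes had such a p. DESeq2 passed 1 list gene there, LIPG, named after its value was seen.

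**Figure D4:**
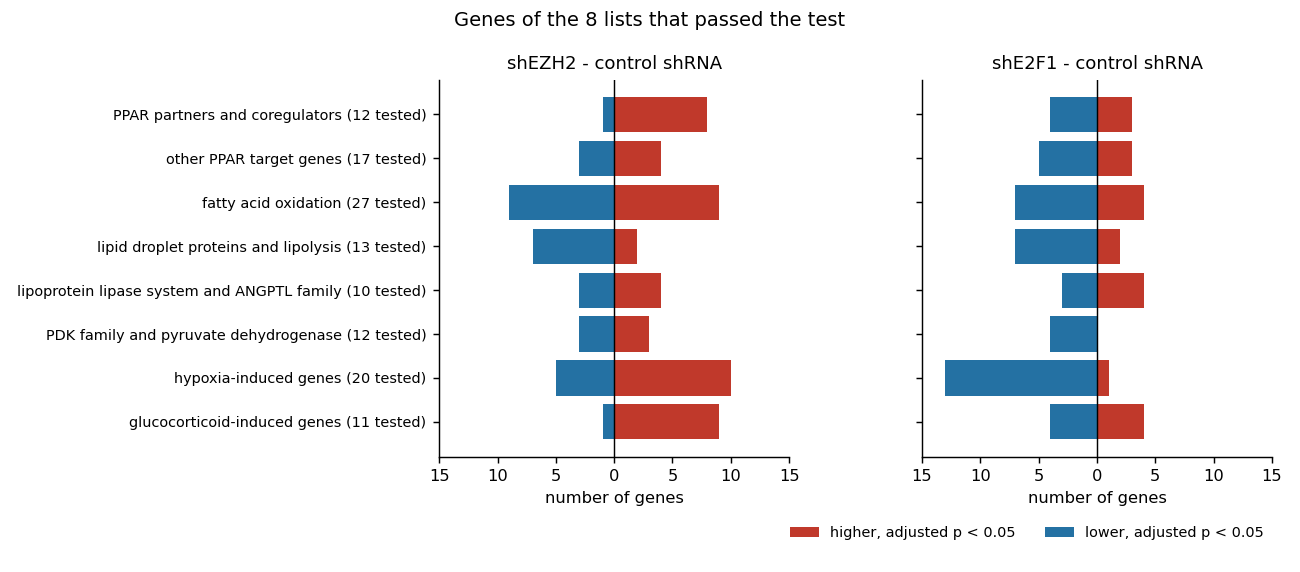
Number of genes of each list that were higher (red, to the right) or lower (blue, to the left) at an adjusted p under 0.05 by edgeR, for shEZH2 (left panel) and shE2F1 (right panel), with the number tested beside each list. Hypoxia-induced genes were higher in 10 and lower in 5 under shEZH2, and higher in 1 and lower in 13 under shE2F1.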

How the data were processed

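Of 18 sample records, 8 repeated another value for value, which left 10 libraries. The authors aligned reads with STAR and estimated abundance with RSEM (1.3.1 per the submitters' processing notes). The deposited files hold RSEM expected counts, TPM and effective lengths per Ensembl gene. The strand setting of the counting is not given in the sources used here. Names and coordinates came from GENCODE 44 (GRCh38), a later release than the authors used, with 62625 of 62703 identifiers matched.

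Expected counts were rounded and tested in edgeR 4.0.16 (filterByExpr, TMM, quasi-likelihood test, Benjamini-Hochberg over all genes). The 6 knockdown libraries and the 4 drug libraries were fitted apart. Depth of 13198932 to 20055550 counts means that a count of 0 allows up to 0.227 CPM, for counting error only. CPM and log2 CPM (prior count 2) were scaled by TMM over 10 libraries. The fits were tested on simulated data. Members and lists were chosen with earlier results of these data known. Up to 3 called genes per list and knockdown with a mean of at least 50 counts were named, and some that this rule selected are not reported here. DESeq2 1.42.0 and other alternatives are described in the closing section.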

Additional observations from a re-analysis of the deposited data

How the results depend on the processing

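In the EZH2 comparison 130 of 143 recomputed changes of the 9 genes moved by less than the spread between replicates, and the number past the thresholds was 2, or 6 at an adjusted p under 0.05 with any fold, counts from which nothing is read since this comparison chose the set. In the E2F1 comparison, 0 of the 8 genes other than ANGPTL4 were called, and 5 passed at that threshold. Over all genes 44.7% passed. Fewer of the 8 passed when either shE2F1 library was left out, which leaves 1 library in that group, and a smaller share of all genes passed too. Without control shRNA replicate 2, the log2 difference of ANGPTL4 was 1.04 (description). PPARA changed sign in the E2F1 comparison with the effective length offset (0.13).

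Under GSK126 the small differences changed sign in 17 of 117 recomputations, all with an adjusted p over 0.9. With each library left out, ANGPTL4 lay between −0.39 and 0.09, PDK4 between −0.52 and 0.05, CPT1A between −0.26 and 0.01, ACADVL between −0.12 and 0.13, PPARD between −0.05 and 0.08, PPARA between −0.44 and 0.04, and PPARG between −0.03 and 0.12. ACADVL stood at 0.00 with the filter of 50 counts and with GC and length correction, with and without the block, and at 0.05 with the effective length offset, where PPARA stood at 0.01. The cause of these moves was not tested.

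The replicate block was tried because DMSO and GSK126 libraries of the same number deviated together (r = 0.663 over 11919 genes); with 2 pairs the numbers are not taken as pairs. With the replicate block 1 of the 9 genes passed under GSK126, PLIN2 at −0.23 (adjusted p = 0.000614, and 0.00488 with GC and length correction as well, where 1 passed too), in a fit with 1 residual degree of freedom in which 13.6% of all genes passed. In the E2F1 comparison PDK4 passed with the block (0.99, adjusted p = 0.0449). Of 720 recomputed list counts, 48 moved by more than 1.5 times. None was a count of genes that passed under shEZH2, where 13 counts of called genes moved. Under shE2F1, 10 counts of called genes moved and 7 of genes that passed, each of the 7 with a library left out: PPAR partners passed 3 to 4 in place of 7, PPAR targets 5 in place of 8, fatty acid oxidation 7 in place of 11 and the PDK list 2 in place of 4. Under GSK126, 18 moved, 16 of them with the block, which passed 1 to 14 genes of each list (14 of 20 hypoxia-induced genes).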
